A study of Mus musculus with 8 samples.

Results

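MHC and antigen presentation genes were examined in RNA-Seq of whole kidneys, where 34 genes met a rule on names and counts. This set of genes was chosen with earlier results of these data known. The rule took every gene whose symbol begins with H2-, the mouse MHC prefix, together with *B2m*, *Tapbp*, *Tap2*, *Cd74*, *Ciita*, *Nlrc5*, *Psmb8*, *Psmb9* and *Psmb10*. It named 54 of the 55367 genes listed, and 34 of the 54 had at least 10 counts in at least 4 libraries. All 34 were among the 20149 genes tested between genotypes. The groups were 4 Maf conditional KO mice (*c-Maf*ΔTAM, here KO) and 4 Maf flox/flox mice (*c-Maf* fl/fl, here flox), all C57BL/6J and 8 weeks old. Both groups carried floxed *c-Maf* alleles and received tamoxifen, and mice of this age were examined 10 days after it. The KO mice also carried CAG-Cre-ERTM, a tamoxifen-activated recombinase driven by a ubiquitous promoter, so *c-Maf* deletion was not limited to 1 cell type of the kidney. The flox controls lacked the recombinase, so effects of deletion and of active Cre cannot be told apart here.

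MHC class I molecules display peptides made inside the cell to CD8+ T cells and are carried by nearly all nucleated cells. Proteasomes cut the peptides, the TAP transporter moves them into the endoplasmic reticulum, and tapasin helps load them onto a class I heavy chain paired with beta-2 microglobulin. MHC class II molecules display peptides from endocytosed proteins to CD4+ T cells, mainly on dendritic cells, macrophages and B cells, and the invariant chain guards their groove until H2-DM exchanges it for peptide. In the kidney, a dense network of resident mononuclear phagocytes carries class II, and tubule cells can be induced to express it by interferon-gamma. NLRC5 and CIITA are the transactivators of class I and class II genes, and neither binds DNA itself: they dock on proteins assembled at the X and Y boxes upstream of these genes.

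The upstream sequences are shown here because X and Y boxes are the known common elements of class I and class II promoters. Promoter sequences from RefSeq (GRCm38.p6) were found for 23 of the 34 genes, and the 250 bases before each start site were searched on both strands. Each line below gives the 150 bases that end just before the start site as RefSeq places it (in *H2-D1* and *H2-DMb1* this lies inside the longer Ensembl gene), 5′ to 3′ on the gene's own strand. Capitals mark the X box core ACNGATG, the Y box core ATTGG on either strand (CCAAT when read on the other) and, in *B2m* alone, the interferon response element (GAAA, any 2 bases, GAAA). Only exact matches to these letters are marked. For *H2-K1*, which has several entries, the first is shown.
H2-Aa (chr17:34287824-34287973, minus strand): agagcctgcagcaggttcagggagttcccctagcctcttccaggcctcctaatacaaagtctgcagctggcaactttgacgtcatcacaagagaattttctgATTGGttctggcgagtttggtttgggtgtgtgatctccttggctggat
H2-Eb1 (chr17:34305717-34305866, plus strand): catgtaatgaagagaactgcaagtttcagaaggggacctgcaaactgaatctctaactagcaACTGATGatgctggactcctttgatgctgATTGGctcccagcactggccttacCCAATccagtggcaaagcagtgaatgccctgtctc
H2-DMb1 (chr17:34153041-34153190, plus strand): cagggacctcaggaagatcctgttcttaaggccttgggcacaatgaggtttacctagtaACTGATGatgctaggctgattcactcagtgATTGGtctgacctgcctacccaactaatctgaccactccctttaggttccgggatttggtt
H2-D1 (chr17:35262944-35263093, plus strand): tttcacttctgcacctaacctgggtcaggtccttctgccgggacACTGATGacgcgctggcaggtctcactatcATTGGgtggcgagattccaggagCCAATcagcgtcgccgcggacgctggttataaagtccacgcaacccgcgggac
H2-K1 (chr17:34000348-34000497, minus strand): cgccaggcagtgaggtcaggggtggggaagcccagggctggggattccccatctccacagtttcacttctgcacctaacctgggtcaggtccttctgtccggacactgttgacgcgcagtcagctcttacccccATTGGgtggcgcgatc
H2-Q6 (chr17:35424700-35424849, plus strand): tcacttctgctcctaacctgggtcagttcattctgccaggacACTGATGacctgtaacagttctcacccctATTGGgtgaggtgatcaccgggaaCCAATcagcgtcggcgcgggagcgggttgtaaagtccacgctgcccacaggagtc
B2m (chr2:122147537-122147686, plus strand): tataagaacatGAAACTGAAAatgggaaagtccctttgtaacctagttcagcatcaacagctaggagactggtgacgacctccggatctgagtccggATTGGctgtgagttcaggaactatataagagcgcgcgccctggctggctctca

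In *H2-Eb1*, a class II chain gene, the X core began at position -88 and the Y core at -59 from the start site. In *H2-D1*, a class I gene, they began at -106 and -76. The X core stood 28 to 31 bases ahead of the Y core on the same strand in a promoter of 8 of the 23 genes, which were *H2-D1*, *H2-DMb1*, *H2-DMb2*, *H2-Eb1*, *H2-M3*, *H2-Q4*, *H2-Q6* and *H2-Q7*, and the start-to-start distance was 29 or 30 bases in each. The windows held such a pair for 16 (0.0592%) of the 27025 genes with a RefSeq promoter, where a gene with several entries counted once if any of them matched. This spacing was set after the sequences had been seen. Taken singly, the X core was found for 10 of the 23 genes (9.45% of all genes) and the Y core for 20 (37.5%). The kappaB motif (GGGGA, any 3 bases, CC) was found for 7 (5.59% of all), and the interferon response element in *B2m*, *H2-T22* and *H2-T23* (3.46% of all). The half-site of the Maf recognition element, TGCTGAC, was found for 0 of the 23 genes (4.31% of all). These are matches of letters and not sites shown to be bound. Only exact matches were searched, so a gene without one can still carry a variant of the element.

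Across the 8 libraries, counts summed to between 16649129 and 22990257, and the 34 genes took between 0.0729% and 0.121% of them. The targeted gene, *Maf*, had 178 to 671 counts in KO and 5988 to 7746 counts in flox mice. KO mouse 1 and flox mouse 4 stood apart from their groups. Mitochondrial genes took 32.3% of the counts in KO mouse 1, against 18.7% to 22.1% in the other 3 KO mice, and 25.5% in flox mouse 4, against 17.1% to 18.7% in the other 3 flox mice. Their scaling factors by the trimmed mean of M values (TMM) were 0.857 and 0.859. *Xist*, the transcript made from the inactive X chromosome, had 2, 6 and 22 counts in KO mouse 1 and flox mice 3 and 4, and at least 17618 in the other 5, while the sexes are not stated. One label names liver as the source of the RNA and another names whole kidney. The proximal tubule receptor *Lrp2* was at 4466 to 8602 CPM (counts scaled to the library total and its TMM factor), whereas the hepatocyte genes *Alb* and *Tat* reached at most 8.85 and 0.111 CPM. Of the other hepatocyte markers, *Apob* was at 435 to 710 CPM and *Serpina1a* at 1.27 to 14.5 CPM, so these genes do not all lie near 0. All levels are TMM-scaled CPM, differences are log2 fold changes of KO relative to flox mice, and a gene passed the test at an adjusted *P* under 0.05 over all genes tested.

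None of the 34 antigen presentation genes passed the test between genotypes in either direction (0 of 34 by edgeR's quasi-likelihood test). Of all genes tested, 2.16% passed (436 of 20149), with 0.586% of all genes higher and 1.58% lower in KO mice. DESeq2 called 1 of the 34, *B2m*, and 4.4% of all genes. At an unadjusted *P* under 0.05, *B2m* was again the only one of the 34, against 14% of all genes. The log2 fold changes ran from -0.52 (*H2-M3*) to 0.69 (*H2-Ob*), with a median of 0.08 over the 34 genes and of 0.00272 over all genes tested. They lay above 0 for 24 genes and below 0 for 10. The median absolute log2 fold change was 0.13 for these genes and 0.17 for all genes. The 4 KO and the 4 flox values did not overlap for 1 of the 34, *B2m*, which was higher, against 9.79% of all genes (4.17% higher and 5.62% lower). In whole-kidney RNA, a difference in the number of cells of a type and one in RNA per cell cannot be told apart.

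The precision differed between genes. The 95% confidence interval of the difference lay within a 1.5-fold change in both directions for 21 of the 34 genes and within a 2-fold change for 27. It reached past a 2-fold change for *H2-Q1*, *H2-Q2*, *H2-Bl*, *H2-M3*, *H2-DMb2*, *H2-Ob* and *H2-Ke6*.

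**Figure D1:**
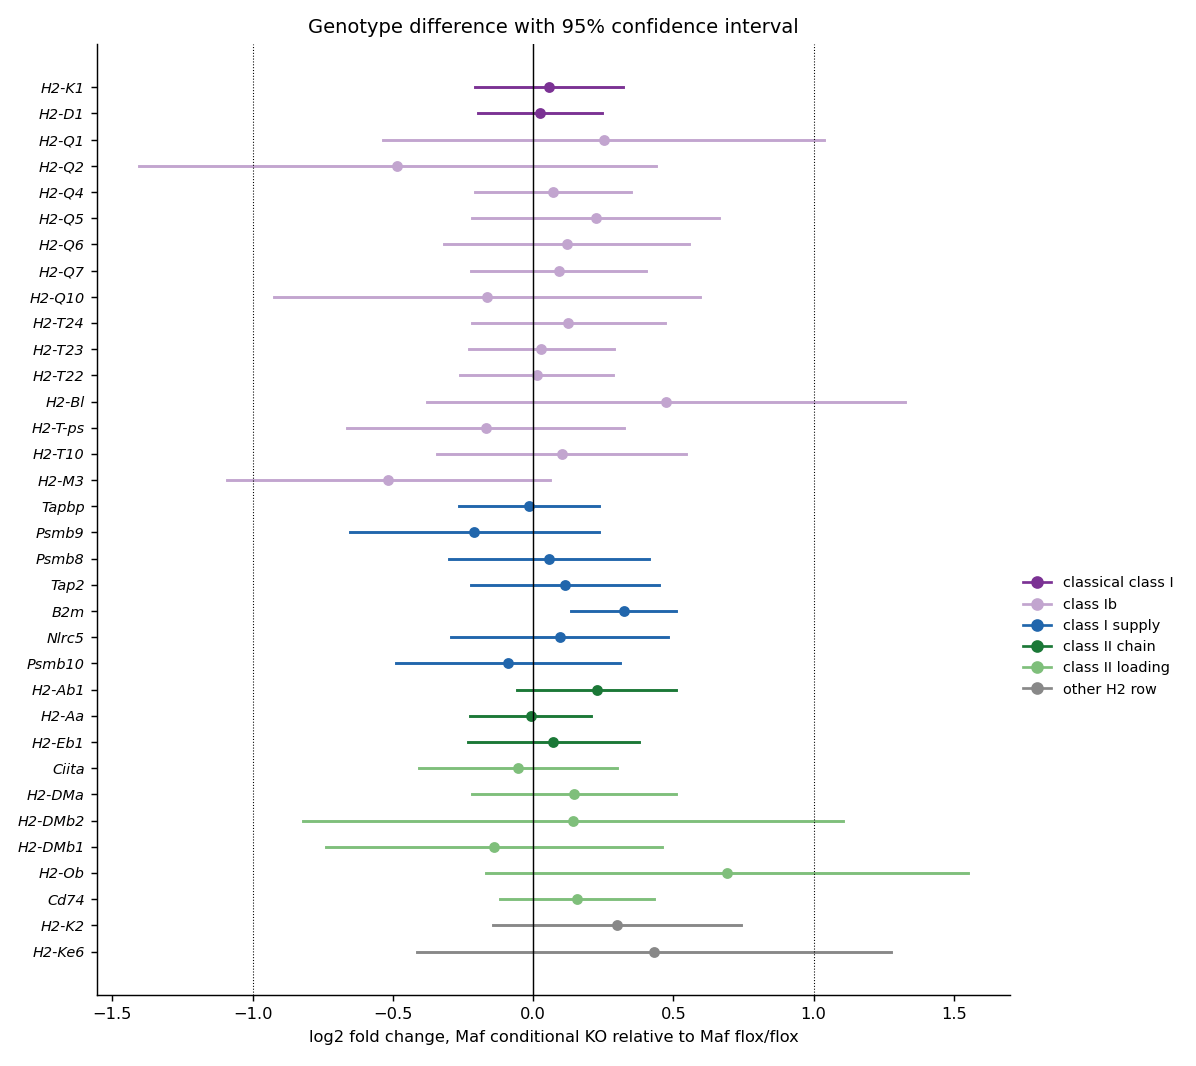
Log2 fold change (x axis) of each of the 34 genes in KO relative to flox mice, with its 95% confidence interval as a line and its role as the colour; dotted lines mark a 2-fold change. Only the interval of *B2m*, from 0.14 to 0.51, leaves out 0, and the widest intervals belong to genes of low counts.

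Levels were set per kilobase of exon to compare genes, although reads placed at more than 1 gene were not counted and lower some class I genes more than others. The lengths are those of all annotated exons, so the order of genes also depends on the annotation. *B2m* was the most abundant of the 34 at 129 CPM per kb in flox mice. *Cd74* followed at 79.8 CPM per kb, then *H2-D1* at 51.8 and *H2-K1* at 42.6. The class II chains were at 25.4 (*H2-Eb1*), 15.2 (*H2-Ab1*) and 12.4 (*H2-Aa*) CPM per kb. In plain CPM of flox mice the order differed. There *B2m*, at 111, was below *Cd74* (134), *H2-D1* (134) and *H2-K1* (125), and *H2-Aa*, at 47.3, was above *H2-Ab1* at 38.9. *Ciita*, at 1.03 CPM per kb, was below all 3 class II chains, *Nlrc5*, at 1.16 CPM per kb, was below both classical class I chains, and *H2-Ob* was lowest at 0.108 CPM per kb.

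**Figure D2:**
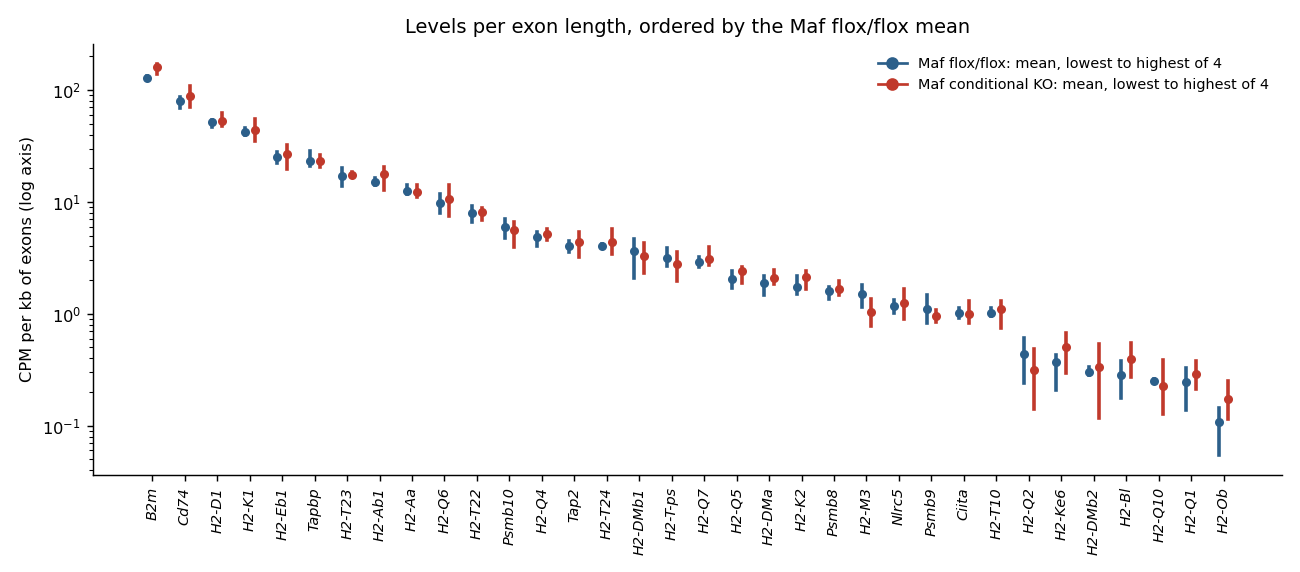
Level per kilobase of exon (y axis, CPM per kb, log scale) of the 34 genes, ordered by the flox mean. Points are group means and lines run from the lowest to the highest of 4 mice; the means run from 129 CPM per kb for *B2m* to 0.108 for *H2-Ob* in flox mice, and the lines of the genotypes overlap for every gene except *B2m*.

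The classical class I heavy chains, which present peptides to CD8+ T cells, overlapped between genotypes, and 0 of the 2 passed. *H2-K1* was at 103, 126, 132 and 160.5 CPM in KO mice 1 to 4, and at 135, 126, 122 and 117 CPM in flox mice 1 to 4. The KO mice held both the lowest and the highest of these 8 values. The log2 fold change was 0.06, with a 95% interval from -0.21 to 0.32 (adjusted *P* = 0.880). *H2-D1* was at 122, 125, 135 and 161 CPM in KO mice, and at 136, 120.3, 139 and 139.8 CPM in flox mice. The groups overlapped again, with KO mouse 4 highest for both genes. Its log2 fold change was 0.02, with an interval from -0.20 to 0.25 (adjusted *P* = 0.946). Summed, the 2 genes were at 266 ± 40.8 CPM in KO and 259 ± 10.2 CPM in flox mice (SD, n = 4 each), and both signs turned without KO mouse 4, to -0.06 and -0.07.

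The class Ib genes encode heavy chains of narrower function, and 14 of them, the pseudogene row *H2-T-ps* included, were measured. Their log2 fold changes ran from -0.52 to 0.47, with 10 above 0, 4 below 0 and adjusted *P* values from 0.420 to 0.979. *H2-T23*, which encodes Qa-1, the ligand of NKG2A receptors on natural killer and T cells, was at 50.2 ± 2.49 CPM in KO and 49.2 ± 8.82 CPM in flox mice (SD over 4 mice each, log2 fold change 0.03). *H2-T22*, a ligand of some gamma-delta T cells, was at 27.5 ± 2.88 and 27.3 ± 4.23 CPM (log2 fold change 0.01), and *H2-T10*, its close relative, at 3.75 ± 0.841 and 3.50 ± 0.288 CPM (0.10). *H2-Q6* and *H2-Q7*, which belong to the Qa-2 group, had log2 fold changes of 0.12 and 0.09. *H2-Q10*, known as a secreted product of the liver, was at 0.555 to 1.68 CPM.

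*H2-M3*, which presents formylated peptides such as those of bacteria, had the lowest log2 fold change of the 34 genes, -0.52. It was at 1.58, 1.13, 1.33 and 1.95 CPM in KO mice, and at 1.81, 1.67, 2.54 and 2.58 CPM in flox mice. KO mouse 4 lay above flox mice 1 and 2, so the groups overlapped. The gene had 22 to 50 counts per library, its interval ran from -1.09 to 0.06, and the adjusted *P* was 0.420.

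Genes of the class I family share stretches of sequence, and reads placed at more than 1 gene were left out of the counts. Over windows of 36 bases, the read length, 63.5% of *H2-T22*, 60.4% of *H2-T10*, 52.1% of *H2-Q5*, 47.7% of *H2-Q4* and 46.0% of *H2-Q6* transcript windows also occurred in another gene, against 21.8% for *H2-D1*, 17.6% for *H2-K1* and 0% for *B2m*. Such windows made up over 10% of 21 of the 34 genes. Values of single class Ib genes are therefore uncertain, and they were also summed. The sum of *H2-Q1*, *H2-Q2*, *H2-Q4*, *H2-Q5*, *H2-Q6*, *H2-Q7*, *H2-Q10*, *H2-T23* and *H2-T-ps* was at 108 ± 10.02 CPM in KO and 104 ± 3.66 CPM in flox mice (SD over 4 mice each). Its log2 fold change was 0.06, with an interval from -0.13 to 0.24 (adjusted *P* = 0.823). For *H2-T10* and *H2-T22* together it was 0.02, with an interval from -0.22 to 0.27 (adjusted *P* = 0.955).

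*B2m*, the light chain of class I and class Ib molecules, was the gene nearest to the threshold. It was at 120.5, 149, 143 and 142 CPM in KO mice 1 to 4, and at 108, 108, 112 and 115 CPM in flox mice 1 to 4. All 4 KO values lay above all 4 flox values, and KO mouse 1 was nearest to the controls. The means of the 4 mice per genotype were 138 ± 12.3 and 111 ± 3.39 CPM (SD). On the log2 scale the difference was 0.32, with a standard error of 0.0851 and a 95% interval from 0.14 to 0.51. The unadjusted *P* was 0.00267 and the adjusted *P* 0.0840, so *B2m* did not pass. Over 22 other choices of scaling, filter, test or libraries, its log2 fold change stayed between 0.29 and 0.42, and the adjusted *P* lay between 0.00606 and 0.352. It passed under 7 of the 22. Upper-quartile factors, among these 7, raised *B2m* to 0.37 and the median over all genes to 0.0468 from 0.00272. With another scaling or test, the adjusted *P* was 0.0421 for upper-quartile factors, 0.0434 for quantile normalization and 0.0190 for DESeq2, where 2.07%, 2.02% and 4.4% of all genes passed. With *Xist* taken into account it was 0.0224 as a covariate and 0.00606 in the 5 libraries with high *Xist*, where 6.82% and 3.75% of all genes passed. It was 0.0179 without KO mouse 1 and 0.0217 without it and flox mouse 4, where 2.2% and 1.89% passed. *B2m* lies on chromosome 2 (GRCm38) from 122147686 to 122153083 on the plus strand, outside the MHC, and its upstream sequence above carries a Y core at -53 and the interferon response element at -139.

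**Figure D3:**
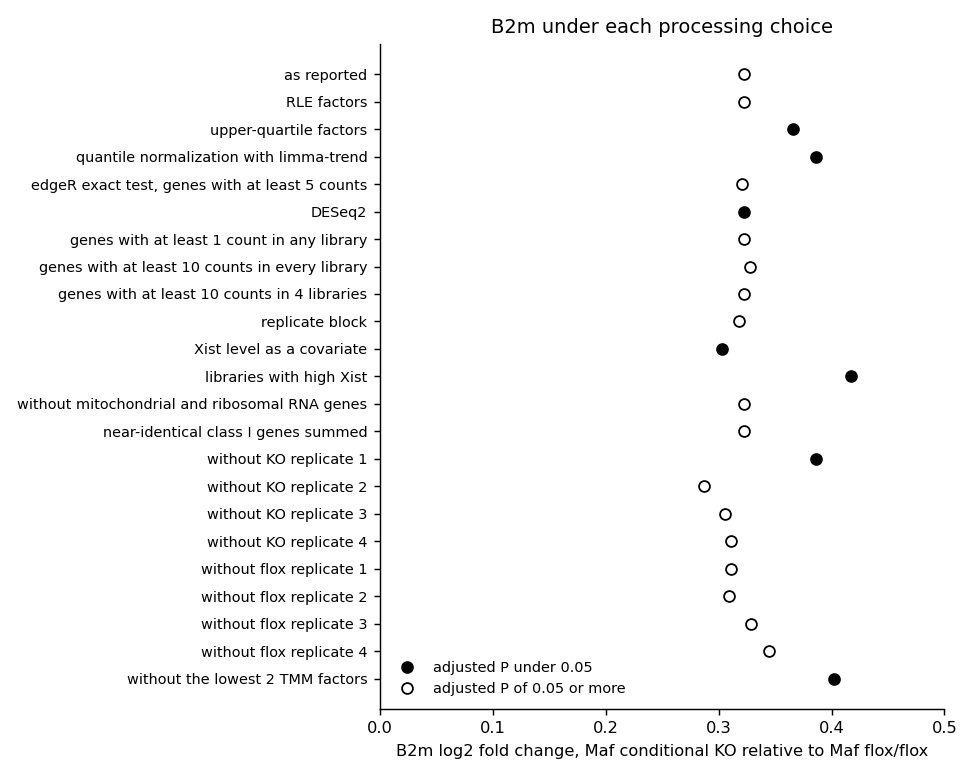
Log2 fold change of *B2m* (x axis) as reported and under each of 22 other choices of scaling, filter, test or libraries (y axis); filled points have an adjusted *P* under 0.05. The values lie between 0.29 and 0.42, all above 0, and 7 points are filled.

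The other 6 supply genes had log2 fold changes from -0.21 to 0.11, and 0 of the 6 passed. *Tapbp*, which encodes tapasin, was at 74.9, 80.8, 84.1 and 94.4 CPM in KO mice, and at 104, 82.3, 76.5 and 75.4 CPM in flox mice. These values overlapped throughout, with a log2 fold change of -0.02 (interval from -0.26 to 0.23), and 24.9% of its exonic bases also belong to *Gm19412*. *Tap2*, a subunit of the peptide transporter, was at 12.3, 18.5, 14.9 and 20.5 CPM in KO mice, and at 16.9, 15.5, 15.2 and 13.6 CPM in flox mice. Its log2 fold change was 0.11 (interval from -0.22 to 0.45), and that of the partner subunit *Tap1* was -0.12 (adjusted *P* = 0.804). *Nlrc5*, the class I transactivator, was at 7.68, 9.91, 14.2 and 10.4 CPM in KO mice, and at 9.52, 8.71, 10.1 and 11.2 CPM in flox mice. The KO values enclosed those of the controls, and the log2 fold change was 0.09 (interval from -0.29 to 0.48).

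*Psmb8*, *Psmb9* and *Psmb10* encode the catalytic subunits of the immunoproteasome, which cuts peptides that fit class I well. *Psmb8* was at 5.04, 6.68, 5.82 and 4.98 CPM in KO mice, and at 5.89, 5.87, 5.23 and 4.63 CPM in flox mice. *Psmb9* was at 3.41, 3.08, 3.94 and 3.68 CPM in KO mice, and at 5.40, 3.93, 3.91 and 3.05 CPM in flox mice. *Psmb10* was at 6.72, 9.45, 11.4 and 10.9 CPM in KO mice, and at 11.1, 11.96, 9.59 and 8.09 CPM in flox mice. The genotypes overlapped for all 3 genes. The log2 fold changes were 0.06 (interval from -0.30 to 0.41), -0.21 (from -0.65 to 0.23) and -0.09 (from -0.49 to 0.31). That of *Psmb9* was -0.0454 without flox mouse 1, -0.32 without flox mouse 4 and -0.39 among the libraries with high *Xist*.

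Each of these subunits replaces a constitutive one, *Psmb5*, *Psmb6* and *Psmb7*, and the ratio within a library does not depend on scaling. The linear ratio per exon length of *Psmb8* to *Psmb5* was 0.0998 in KO and 0.0874 in flox mice. For *Psmb9* to *Psmb6* it was 0.0394 and 0.0372, and for *Psmb10* to *Psmb7* it was 0.707 and 0.719. The constitutive subunit thus exceeded the immunoproteasome subunit in each pair of means, least so for *Psmb10*. On the log2 scale, the genotypes differed by 0.19, 0.08 and -0.02, with two-sided exact permutation *P* values of 0.400, 0.771 and 0.914 over 70 assignments, each 0.914 after adjustment over the 3 ratios. With 4 mice against 4, the smallest *P* such a test can give is 0.0286. Leaving out 1 mouse at a time moved the 3 differences between 0.05 and 0.34, between -0.07 and 0.24, and between -0.20 and 0.20. The constitutive subunit *Psmb6* was itself lower in KO mice without overlap (38.3 to 51.0 and 52.7 to 57.7 CPM), as 5.62% of all genes were. Its log2 fold change was -0.26 (adjusted *P* = 0.239 by the quasi-likelihood test), which enters the *Psmb9* to *Psmb6* ratio.

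**Figure D4:**
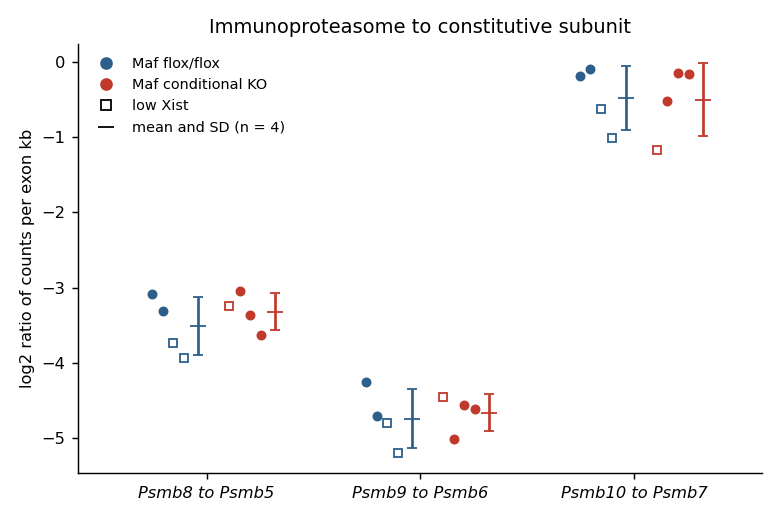
Log2 ratio of counts per exon kb (y axis) of each immunoproteasome subunit to the constitutive subunit it replaces, for each mouse, with open squares for libraries with low *Xist*, and the mean and SD of 4 mice as a bar. The genotypes overlap in all 3 ratios, and at the exon lengths used *Psmb10* to *Psmb7* lies nearest to 0, with log2 means of -0.50 and -0.48.

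The class II chains, which form the peptide-binding alpha and beta pairs, were measured for 3 genes, and 0 of the 3 passed. *H2-Ab1*, the beta chain of I-A, was at 33.0, 49.8, 52.4 and 46.9 CPM in KO mice 1 to 4, and at 39.6, 36.7, 41.8 and 37.5 CPM in flox mice 1 to 4. KO mouse 1 was lowest of the 8 and the other 3 KO mice lay above all controls. The log2 fold change was 0.23, with an interval from -0.06 to 0.51 (adjusted *P* = 0.477), and without KO mouse 1 alone it was 0.36 (adjusted *P* = 0.0530). Among the 5 libraries with high *Xist*, which leave out KO mouse 1 and flox mice 3 and 4, it was 0.38 with an adjusted *P* of 0.0353, where 3.75% of all genes passed. *H2-Aa*, the alpha chain that pairs with it, was at 42.4, 47.2, 53.3 and 45.1 CPM in KO mice, and at 44.3, 44.3, 54.4 and 46.0 CPM in flox mice. Its genotypes overlapped throughout, with a log2 fold change of -0.01 (interval from -0.22 to 0.21). *H2-Eb1*, the beta chain of I-E, was at 38.3, 51.6, 62.8 and 54.8 CPM in KO mice, and at 53.4, 43.8, 54.7 and 45.4 CPM in flox mice, a log2 fold change of 0.07 (interval from -0.23 to 0.38). Summed, the 3 chains were at 144 ± 22.7 CPM in KO and 136 ± 11.5 CPM in flox mice (SD, n = 4 each). *H2-Ea*, the alpha chain of I-E, which C57BL/6 mice are known not to express, had 0 counts in all 8 libraries, which allows at most 3 counts, or up to 0.176 CPM in the library where that limit is highest. This floor covers counting error only.

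*Cd74*, the invariant chain, was the most abundant class II gene. It was at 118, 149, 182 and 148 CPM in KO mice, and at 136, 116, 145 and 139 CPM in flox mice. KO mouse 1 lay near the bottom and the other 3 at the top of the 8 values. The means of the 4 mice per genotype were 149 ± 26.2 and 134 ± 12.7 CPM (SD), with a log2 fold change of 0.16, an interval from -0.12 to 0.43 and an adjusted *P* of 0.637. It was 0.26 without KO mouse 1, 0.0459 without KO mouse 3, 0.0915 without flox mouse 2 and 0.34 among the libraries with high *Xist*. *Ciita*, the class II transactivator, was at 7.84, 9.40, 12.4 and 8.12 CPM in KO mice, and at 10.8, 8.71, 9.64 and 9.97 CPM in flox mice. Its log2 fold change was -0.05, with an interval from -0.41 to 0.30 (adjusted *P* = 0.926).

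*H2-DMa*, *H2-DMb1* and *H2-DMb2* encode the exchange factor H2-DM, and *H2-Ob* encodes the beta chain of H2-O, which inhibits it. The log2 fold changes of the H2-DM genes were 0.15, -0.14 and 0.14. *H2-DMb1* and *H2-DMb2* shared 28.7% and 33.4% of their windows with other genes, mainly with each other, so their split is uncertain. *H2-Ob* was at 1.07, 0.616, 0.721 and 1.35 CPM in KO mice, and at 0.294, 0.767, 0.609 and 0.645 CPM in flox mice. It had the highest log2 fold change of the 34 genes, 0.69, on 6 to 25 counts per library, with an interval from -0.17 to 1.55 (adjusted *P* = 0.475). Its partner *H2-Oa* had at most 7 counts in any library and was not among the 34.

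Beyond these roles, *H2-K2*, a class I-like row, was at 2.85, 3.70, 3.94 and 4.11 CPM in KO mice, and at 2.84, 3.75, 2.59 and 2.64 CPM in flox mice. The groups overlapped through flox mouse 2 (log2 fold change 0.30, interval from -0.14 to 0.74, adjusted *P* = 0.561). *H2-Ke6* carries the MHC prefix by its position but encodes a hydroxysteroid dehydrogenase (*Hsd17b8*), and 86.4% of its exonic bases also belong to *Gm20427*. It had 7 to 20 counts per library and a log2 fold change of 0.43. Of the 34 genes, 29 lie on chromosome 17 between 33915899 and 37274484 (GRCm38), and *B2m*, *Nlrc5*, *Psmb10*, *Ciita* and *Cd74* lie on other chromosomes. The other 20 genes that the rule named had at most 7 counts in any library, 10 of them 0 in all 8, so none reached 10 counts.

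**Figure D5:**
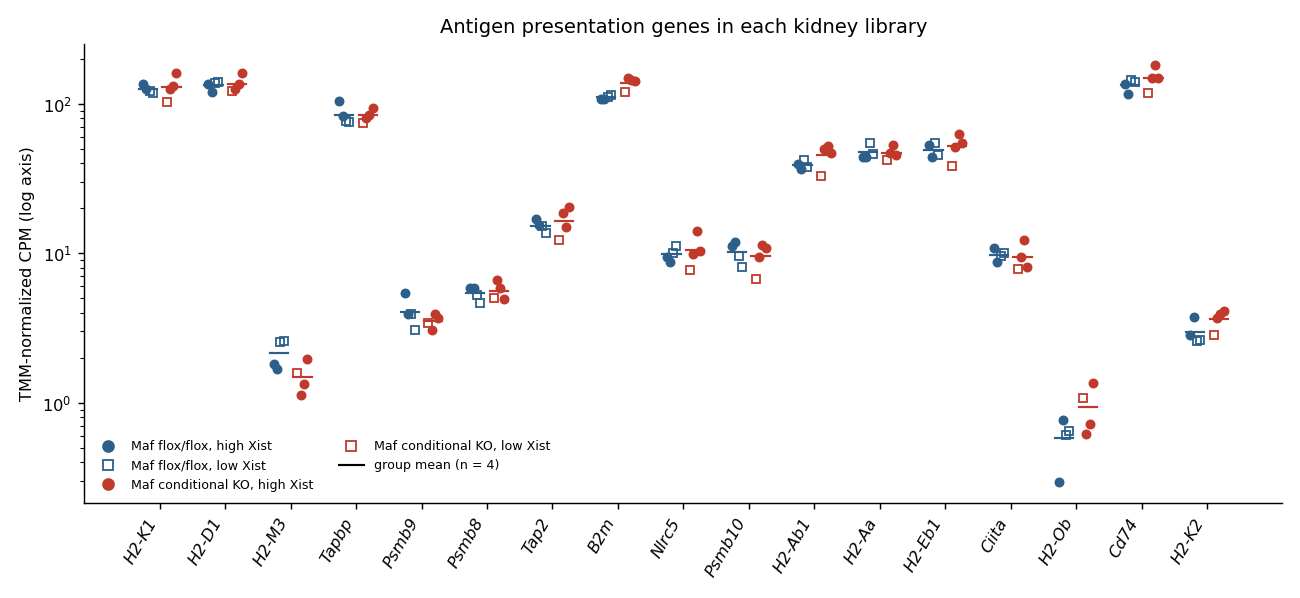
TMM-scaled CPM (y axis, log scale) of 17 antigen presentation genes in each of the 8 libraries, with open squares for libraries with low *Xist* and lines for the mean of 4 mice. *B2m* is the only gene of the 17 whose genotypes do not overlap, and KO mouse 1, the open red square, lies lowest of the 8 for all 3 class II chains.

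The spread among mice was not even. KO mouse 1 was lowest of the 8 for 13 of the 34 genes and highest for 0. It was lowest for all 3 class II chains. KO mouse 4 was highest for 12 of the 34, 10 of them among the 23 class I genes, and KO mouse 3 was highest for 9, 6 of them among the 9 class II genes. Without KO mouse 1, the median log2 fold change of the 34 genes was 0.14 in place of 0.08, with 28 in place of 24 above 0, and 1 gene passed (*B2m*), where 2.2% of all genes did. Without KO mouse 4 the median was 0.03 and without KO mouse 3 it was 0.04, each with 21 above 0 and 0 passing. The part that its mitochondrial share or its low *Xist* had in these levels was not tested.

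Of 37 other genes of the pathway, 0 passed the test as higher and 2 as lower in KO mice, against 0.586% and 1.58% of all genes. Of the 37 log2 fold changes, 12 lay above 0 and 25 below, and the genotypes did not overlap for 1 gene that was higher (*Jak2*) and 4 that were lower, against 4.17% and 5.62% of all genes. Both genes that passed are lysosomal proteases that can cut the invariant chain. *Lgmn*, which encodes legumain, was at 126 to 168 CPM in KO and 471 to 509.7 CPM in flox mice (log2 fold change -1.72, adjusted *P* = 4.88e-06), and *Ctsl*, which encodes cathepsin L, at 217 to 229 and 342 to 365 CPM (-0.68, adjusted *P* = 0.000431). Both passed under all 22 other choices. *Ctss*, the protease that performs this step in dendritic cells and B cells, was at 12.4 and 11.5 CPM in KO and flox means. Its log2 fold change was 0.11 (adjusted *P* = 0.789). The cells that the *Lgmn* and *Ctsl* RNA came from were not tested and need not carry class II. Of the proteins that assemble on the X and Y boxes, *Rfx5* had a log2 fold change of 0.31 (adjusted *P* = 0.335), *Rfxap* -0.11, *Rfxank* -0.09, *Creb1* 0.08, and *Nfya*, *Nfyb* and *Nfyc* -0.26, -0.14 and 0.09. *Erap1*, which trims peptides for class I, was at 38.6 ± 4.72 and 32.6 ± 2.45 CPM (SD over 4 mice each, log2 fold change 0.24, adjusted *P* = 0.326).

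Interferon-gamma raises both arms of the pathway, so 13 genes it is known to induce were examined, and 0 passed. All 13 log2 fold changes lay above 0, with a median of 0.26 against 0.00272 over all genes. This list was chosen with earlier results of these data known. An unadjusted *P* under 0.05 was reached by 3, all higher, against 1326 of the 20149 genes tested that were higher at that level. The largest log2 fold change was 0.77 (*Gbp3*). That gene was at 17.8, 12.2 and 10.7 CPM in the low-*Xist* KO mouse 1 and flox mice 3 and 4, against 25.9 to 44.5 CPM in the other 5. The lowest adjusted *P* of the list was 0.263. Their summed level was 196 to 244 CPM in KO and 173 to 198 CPM in flox mice, with an overlap. *Irf1*, an interferon-induced transcription factor, had a log2 fold change of 0.06 (adjusted *P* = 0.873), and *Jak2*, the kinase at the receptor, was at 61.4 ± 3.90 and 50.1 ± 2.44 CPM (SD over 4 mice each, 0.29, adjusted *P* = 0.0913).

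Marker genes of the cells that carry class II, and of other cells the tissue could hold, are given beside these levels, and their part in them was not tested. The summed level of 9 macrophage markers was 110.4 to 119 CPM in KO and 96.3 to 106 CPM in flox mice, which did not overlap, with 0 of 9 passing and none at 0. The genotypes overlapped for each of the 9 genes by itself and for the sum of the 8 without *Csf1r* (48.1 to 60.7 and 42.9 to 53.2 CPM). An unadjusted *P* under 0.05 was reached by 3 of the 9, all higher (*Csf1r*, *Cx3cr1* and *Cd14*), against 1326 of the 20149 genes tested that were higher at that level, while *Mrc1* had a log2 fold change of -0.32. The 8 dendritic cell markers summed to 25.8 to 30.997 and 25.0 to 27.5 CPM, with 0 of the 6 tested passing. *Zbtb46*, with means of 19.4 and 18.1 CPM, made up most of these sums, and 3 of the 6 log2 fold changes lay above and 3 below 0. The 4 general leukocyte markers summed to 28.3 to 42.9 and 26.8 to 35.0 CPM, with 0 of 4 passing. B cell markers were near 0: the 7 genes summed to 1.30 to 1.59 CPM in KO and 2.03 to 2.99 CPM in flox mice without overlap, 5 of the 7 never exceeded 10 counts, and 0 of the 1 tested passed. The sums of the 6 without *Cd22* overlapped (1.12 to 1.59 and 1.47 to 2.21 CPM). The 8 T and NK cell markers summed to 3.87 to 6.88 and 2.99 to 4.97 CPM, with 0 of 4 tested passing. Of 7 endothelial markers, which summed to 526 to 563 and 549.9 to 654 CPM, 1 passed (*Kdr*, log2 fold change -0.37, adjusted *P* = 0.0450), and of 8 tubule and glomerulus markers, which summed to 11569.9 to 17295 and 17905 to 20576 CPM without overlap, 4 log2 fold changes lay above and 4 below 0 and 1 passed (*Slc34a1*, -1.23, adjusted *P* = 0.000217). The sums of the 7 kidney markers without *Slc34a1* overlapped (9823 to 15323 and 13373 to 16683 CPM). Of all genes tested, 1.58% passed as lower and 5.62% lay lower without overlap. Of the 7 hepatocyte markers, 0 of the 4 tested passed, and *Apob* made up most of their sum of 438 to 659 and 623 to 720 CPM. Of the 4 log2 fold changes, 2 lay above and 2 below 0. *Alb* was lower in KO mice without overlap (0.661 to 2.57 and 2.69 to 8.85 CPM, -2.04, adjusted *P* = 0.0803). *Serpina1a* was higher with an overlap (1.99, adjusted *P* = 0.286).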

How the data were processed

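The libraries were whole-kidney RNA-Seq of 4 Maf conditional KO mice (KO) and 4 Maf flox/flox mice (flox), numbered as in the labels. That each library came from its own mouse follows the study's account. If libraries shared an animal, *P* values would measure technical spread. The authors deposited raw read counts per gene, made with featureCounts 2.0.1 per the file header (the submitters' processing notes name Subread 2.0.2 and edgeR 3.36.0) on Ensembl 102 (GRCm38). Counting summed exons by gene name, took each read of a pair by itself, ignored strand and left out reads that mapped to several places or overlapped several genes, so counts of near-identical class I genes are incomplete. The study's methods describe another route, in which reads were mapped to mm10 and quantile expression values were computed and tested in CLC Genomics Workbench. The aligner behind the deposited counts is not given in the sources used here. Libraries were directional, depleted of ribosomal RNA and read as 36-base pairs.

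The antigen presentation genes, the roles and the other lists were chosen with earlier results of these data known. Genes kept by filterByExpr (20149) were scaled by TMM and compared with edgeR 4.0.16 (quasi-likelihood test, robust, no covariates, R 4.3.3), with Benjamini-Hochberg adjustment over all of them and a threshold of 0.05. Standard errors were taken from the F statistic, and intervals are 95%. Values with every library were given for the 14 main class I and class II genes and for the 5 of smallest *P*; others were given by means, fold changes, ranges or the counts of their list. The values of 1 of the other pathway genes, which this rule also covers, are not reported here. Immunoproteasome ratios were compared by exact permutation. The pipeline was tested on simulated counts. Promoters came from RefSeq (GRCm38.p6), and shared 36-base windows were computed from the reference transcripts. The other choices tried were DESeq2 1.42.0, edgeR's exact test, limma 3.58.1 on quantile-normalized values, upper-quartile or RLE factors, 3 other filters, the replicate block, *Xist* as a covariate, libraries with high *Xist* alone, removal of mitochondrial and ribosomal RNA genes, summed class I genes, each library left out and, chosen after the data had been seen, both libraries of lowest TMM factor left out.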

Additional observations from a re-analysis of the deposited data

Results flagged for a closer look

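In 74 groups of 4 mice (the 34 genes and 3 ratios in each genotype), 5 held a single value that stood apart from the other 3 by a larger part of the group's range than Dixon's 95% limit allows, where chance gives about 1 in 20, or 3.7 groups. *H2-Q5* was at 2.98 CPM in KO mouse 2 against 4.10 to 4.17 CPM in the other KO mice. *H2-Q7* was at 16.8 CPM in KO mouse 4 against 11.7 to 12.3 CPM. *H2-Q10* was at 1.04 CPM in flox mouse 2 against 1.11 to 1.13 CPM. *H2-Aa* was at 54.4 CPM in flox mouse 3 against 44.3 to 46.0 CPM, and *H2-Ke6* at 0.343 CPM in flox mouse 1 against 0.677 to 0.710 CPM. The 5 values fell in 5 different libraries.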

How the results depend on the processing

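No antigen presentation gene was lower past the threshold under any of the 22 other choices. The number higher was 1 (*B2m*) with upper-quartile factors, quantile normalization, DESeq2, *Xist* as a covariate, without KO mouse 1, or without it and flox mouse 4. It was 2 (*B2m* and *H2-Ab1*) among the 5 libraries with high *Xist*, and 0 under the rest, so that it ran from 0 to 1 with each library left out; the cause was not tested. Log2 fold changes near 0 turned their sign without passing. *Tapbp* was 0.0274 with upper-quartile factors and 0.0392 with quantile normalization, and *H2-Aa* was 0.0360 and 0.0434. The median over all genes was 0.0468 and 0.0147 under these choices, in place of 0.00272. Both genes lay below that median with upper-quartile factors and above it with quantile normalization. With *Xist* as a covariate *H2-K1* was -0.00198. Among libraries with high *Xist*, *H2-Aa* was 0.13, *Psmb8* -0.0132, *Ciita* 0.0292, the *Psmb8* to *Psmb5* ratio difference -0.15 and that of *Psmb9* to *Psmb6* -0.25. Without the 2 libraries of lowest TMM factor, *H2-Aa* was 0.0261 and *Ciita* 0.0360. With each library left out in turn, values ran from -0.0593 to 0.160 for *H2-K1*, -0.0670 to 0.0756 for *H2-D1*, -0.0796 to 0.0974 for *Tapbp*, -0.00703 to 0.236 for *Tap2*, -0.0822 to 0.222 for *Nlrc5*, -0.0357 to 0.111 for *Psmb8*, -0.1803 to 0.0513 for *Psmb10*, -0.0748 to 0.0677 for *H2-Aa*, -0.0329 to 0.196 for *H2-Eb1*, -0.210 to 0.0288 for *Ciita*, -0.0720 to 0.244 for the *Psmb9* to *Psmb6* ratio difference and -0.200 to 0.203 for that of *Psmb10* to *Psmb7*. The log2 fold changes of *B2m*, *H2-Ab1*, *Cd74*, *H2-Ob*, *H2-K2*, *Psmb9* and *H2-M3* kept their sign under all choices that gave a value, and with each library left out ran from 0.29 to 0.39 for *B2m*, 0.15 to 0.36 for *H2-Ab1*, 0.0459 to 0.26 for *Cd74*, 0.47 to 0.87 for *H2-Ob*, 0.24 to 0.44 for *H2-K2*, -0.32 to -0.0454 for *Psmb9* and -0.67 to -0.40 for *H2-M3*. The replicate block called 129 genes in place of 436 and 0 of the antigen presentation genes (*B2m* 0.32, adjusted *P* = 0.311). Same-numbered mice did not deviate together (correlations of deviations from -0.37 to 0.15), and 1 of 8 libraries correlated best with its own number. Of all genes tested, the count passing was 886 with DESeq2, 1374 with *Xist* as a covariate, 789 among libraries with high *Xist*, and 256, 239, 285 and 301 without KO mouse 2 or 3 or flox mouse 3 or 2. *H2-Ob*, with 6 to 25 counts per library, had an interval that reached past a 2-fold change.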

Other observations

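Presenting molecules outside the MHC were also measured. *Fcgrt*, the heavy chain of the neonatal Fc receptor, which pairs with beta-2 microglobulin and carries IgG and albumin, was at 148, 146, 129 and 132 CPM in KO mice, and at 165, 158, 194 and 198 CPM in flox mice. All 4 KO values lay below all 4 flox values, as for 5.62% of all genes, and the log2 fold change was -0.37 (interval from -0.58 to -0.15, adjusted *P* = 0.0885). *Mr1*, which presents vitamin B metabolites, was at 7.19 ± 0.877 and 5.98 ± 1.67 CPM (SD over 4 mice each, log2 fold change 0.26, adjusted *P* = 0.607), and *Cd1d1*, which presents lipids, at 1.01 ± 0.548 and 0.834 ± 0.531 CPM (adjusted *P* = 0.879). The costimulators *Cd40*, *Cd80* and *Cd86* had group means between 0.811 and 1.97 CPM and adjusted *P* values of 0.906, 0.954 and 0.869.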
